A study of Mus musculus with 18 samples.

Results

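Cumulus cells are the granulosa cells that enclose the oocyte in the antral follicle of the ovary. The comparison described here asked what happened to their transcripts when oocytes were put back without estrogen. The members are the 6 arrays of 18 in the series whose titles name oocyte-free complexes cultured without estrogen, 3 of them alone (arrays 2A, 8 and 14) and 3 together with oocytes (arrays 3, 9 and 15). Every sample was RNA of cumulus cells from antral follicles of female mice. The oocyte-free complexes, called OOX in the labels, are cumulus-oocyte complexes from which the oocyte had been taken out, and in the cocultures such complexes were kept with oocytes. The other 12 arrays hold intact complexes without estrogen and intact, oocyte-free and coculture samples with estrogen, 3 arrays each. Their values entered the shared estimate of the spread, and some are given beside the results. Strain, age, number of oocytes, culture time and estrogen dose are not given in the sources used here, and both groups had been cultured.

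A fully grown oocyte secretes the growth factors GDF9, BMP15 and fibroblast growth factors, which act on receptors of the neighbouring cumulus cells. It is known for setting the metabolism of these cells. The oocyte takes up little glucose, makes little cholesterol and lacks transporters for some amino acids, and it depends on products that the cumulus cells pass to it through gap junctions. Cumulus cells in turn supply the signals that keep meiosis arrested and form the hyaluronan matrix around the egg at ovulation. Mural granulosa cells, which line the follicle wall, differ from them in making more steroid hormone and more Kit ligand.

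Messenger RNA was measured as log2 expression values per probe set on Affymetrix mouse arrays. A gene stands for its brightest probe set, and 12252 genes were tested. A difference is given as coculture minus oocyte-free on the log2 scale with its standard error (SE) from limma, 3 arrays a group. A gene was called, and is said to have risen or fallen, where limma's Benjamini-Hochberg adjusted p over all tested genes was under 0.05. Whether the 3 arrays of a group stand for separate animals or cultures is not stated in the labels. P-values therefore measure only how far these samples varied, and that variation may be technical. In bulk RNA, fewer cells of a type and less RNA per cell cannot be told apart.

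By name the arrays form 3 series, unevenly spread over the groups. Coculture array 9 and oocyte-free array 14 were in series 2, cocultures 3 and 15 in series 1, and oocyte-free arrays 2A and 8 in series 3, so that only series 2 held both groups. Array 14 stood apart: its interquartile range was 2.53 against 2.69 to 3.05 on the other 17 arrays, and its highest correlation within its group was 0.944. Of the 4066 genes called, 98.1% differed in the same direction between arrays 9 and 14, with medians of 0.99 for the genes called higher and -0.84 for those called lower. Both arrays entered the calls, and in 3703 of these genes the groups did not overlap, which fixes that direction. The shared direction was therefore largely set in advance and adds no support to the calls. Among the 224 called genes named in the text, the difference between arrays 9 and 14 lay further from the reported one than the larger SD within a group for 107, 2 of these with the opposite sign. The SD within a group had a median of 0.274 over genes in oocyte-free complexes and 0.204 in cocultures. Array 5 enters the comparison only through the estimate of the spread and the comparison with estrogen: its title places it with estrogen, its source name and treatment label without. Where array 5 is said to be regrouped, it was counted as oocyte-free without estrogen.

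The granulosa identity of both groups was read from defining genes. Foxl2, the granulosa transcription factor, lay at 10.71, 10.24 and 10.49 in cocultures and 11.74, 11.50 and 11.65 in oocyte-free complexes, Inha at 11.97 or above and Amh at 6.69 or above on all 6 arrays. The FSH receptor gene Fshr was low in oocyte-free complexes, at 5.43, 5.69 and 6.15 against 7.70, 7.00 and 7.52 in cocultures. On array 2A it lay under the array median of 5.55. The summed level of 11 cumulus markers on the linear scale was 3614 to 3767 in oocyte-free complexes and 8646 to 11301 in cocultures. In intact complexes it was 9614 to 9924. For 13 mural granulosa markers the sums were 4741 to 5818 in oocyte-free complexes, 20060 to 24881 in cocultures and 21330 to 23149 in intact complexes. Over 23 oocyte markers, the summed level on the linear scale was 828 to 1109 in oocyte-free complexes, 1059 to 1573 in cocultures and 1077 to 1288 in intact complexes. Bcl2l10 was the only one called of 6 tested, and without it the sums were 815 to 1071, 816 to 1216 and 804 to 899. The oocyte growth factor gene Gdf9 lay between 6.63 and 7.19 on all 9 of these arrays. Coculture 9 had the highest values of Nlrp5 (6.40) and Zp3 (5.86), 2 transcripts of the oocyte, and the part of such RNA in the results was not tested. The sums of 16 endothelial and blood markers were 495 to 681 in oocyte-free complexes and 516 to 568 in cocultures. Those of 13 theca and stroma markers were 2951 to 3440 in oocyte-free complexes, 5571 to 7733 in cocultures and 5183 to 5877 in intact complexes. Of the 7 tested, Acta2, Gli1 and Ptch1 rose, Dcn fell (-4.32) and 3 were not called. Acta2, described with the actin genes, made up a large part of the coculture sums, which were not repeated without it.

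In all, 4066 of 12252 genes, or 33.2%, were called. Of these 2427 were higher in cocultures (19.8% of the genes tested) and 1639 lower (13.4%), with median changes of 0.97 and -0.85 among the genes called. At least 2-fold changes among the calls numbered 1765 (14.4%), of which 1153 were rises and 612 falls. At 4-fold or more there were 285 rises and 110 falls, and at 16-fold or more 32 rises and 8 falls. The values of the 3 cocultures lay wholly above or below those of the 3 oocyte-free arrays in 4689 genes (38.3%), of which 3703 were also called. The excess of rises depended on the scale. After centring each array on the median of the tested genes, which moved the median change of all genes from 0.02 to -0.09, 2037 genes were higher and 2202 lower. Quantile normalization applied again, which moved it to -0.07, gave 2144 higher and 2271 lower. Where a share of a gene group is given below, these percentages are the background to read it against.

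**Figure D1:**
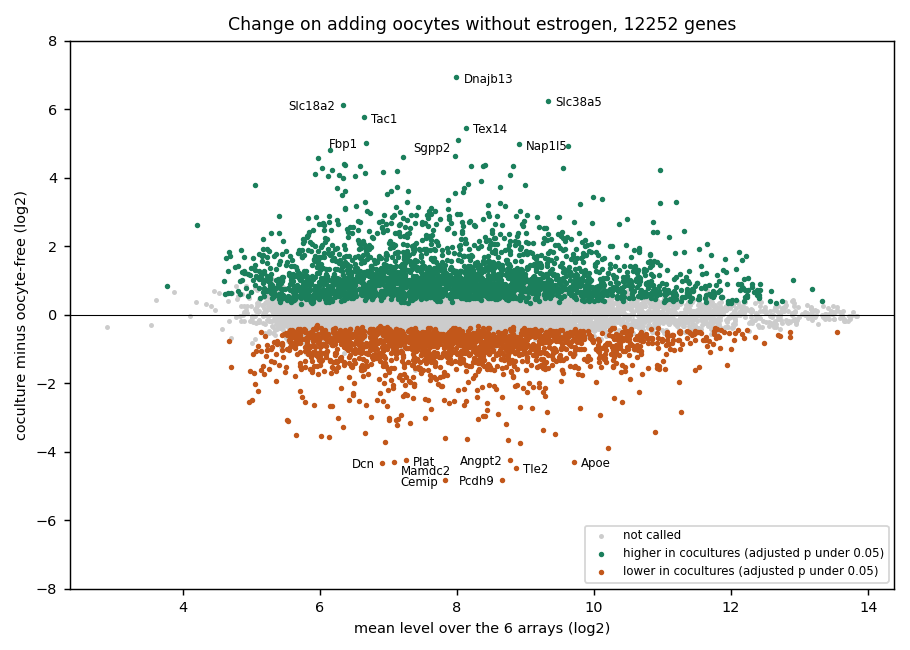
Change on adding oocytes (coculture minus oocyte-free, log2, vertical axis) against the mean level over the 6 arrays (log2, horizontal axis) for 12252 genes, 1 point per gene. Green points are the 2427 genes called higher and orange points the 1639 called lower; the 8 largest rises and falls are named, with Dnajb13 highest at 6.93 and Cemip lowest at -4.83.

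Dnajb13 had the largest rise. This gene, which encodes a chaperone-like protein of the axoneme of cilia and sperm tails, lay at 11.45, 11.48 and 11.44 in cocultures 3, 9 and 15 and at 4.23, 4.97 and 4.38 in oocyte-free arrays 2A, 8 and 14. Slc38a5, a transporter of glutamine, serine and glycine, lay at 12.50, 12.21 and 12.65 in the cocultures and 6.11, 6.18 and 6.32 without oocytes. Intact complexes 1, 7 and 13 had 11.68, 11.68 and 11.47 for Dnajb13 and 12.25, 12.60 and 12.61 for Slc38a5, so for both genes the cocultures sat beside the intact complexes and far above every oocyte-free array. Their rises were 6.93 ± 0.22 and 6.25 ± 0.25 (limma adjusted p = 5.23e-13 and 1.31e-11).

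Of 9 tested genes of neuropeptides and monoamine transport 4 rose and none fell, with a list median of 0.04. Slc18a2, the vesicular monoamine transporter, stood at 9.37, 9.27 and 9.56 with oocytes and 3.26, 3.11 and 3.44 without. Ddc, which makes dopamine and serotonin from their amino acid precursors, had values of 8.34, 7.91 and 8.16 against 4.06, 4.02 and 4.22. Neither set of arrays came near the other, and the rises were 6.13 ± 0.24 and 4.04 ± 0.25. Tac1, the precursor of substance P, was at 9.70, 9.53 and 9.36 in cocultures and 3.90, 3.90 and 3.49 in oocyte-free complexes. Gal, the precursor of the neuropeptide galanin, was measured at 10.10, 10.11 and 9.98 and 6.22, 6.25 and 6.28, so that the arrays of each group lay close together while the groups differed by 3.81 ± 0.14 (adjusted p = 3.38e-12). The other 5 genes of the list were not called and lay between -0.43 (Pomc) and 0.04 (Tacr1, the substance P receptor).

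Tex14, which encodes a protein of the intercellular bridges of germ cells, lay at 10.59, 11.17 and 10.84 in the 3 cocultures and at 5.65, 5.17 and 5.39 in oocyte-free complexes. Sgpp2, a phosphatase that breaks down sphingosine 1-phosphate, had 10.72, 10.14 and 10.85 with oocytes and 4.45, 5.87 and 6.07 without. Unc13c, a priming factor of synaptic vesicles, had 8.43, 8.74 and 8.49 and 3.47, 3.64 and 4.13. All 3 genes were higher in every coculture than in every oocyte-free array, although the oocyte-free arrays of Sgpp2 spread widely. The rises were 5.46 ± 0.23, 5.11 ± 0.34 and 4.81 ± 0.24. Of the other large rises, Nap1l5, an imprinted gene related to nucleosome assembly proteins, rose by 4.98 ± 0.26, Pla1a, a phospholipase acting on phosphatidylserine, by 4.60 ± 0.31, Dynap by 4.58 ± 0.33, Gm2102 by 4.40 ± 0.29 and Smim5 by 4.38 ± 0.20. Limma's adjusted p-values of the 15 largest rises lay between 4.15e-13 and 1.41e-08. The choice of these genes asked for a call and for groups that do not overlap, so neither adds support to them.

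**Figure D2:**
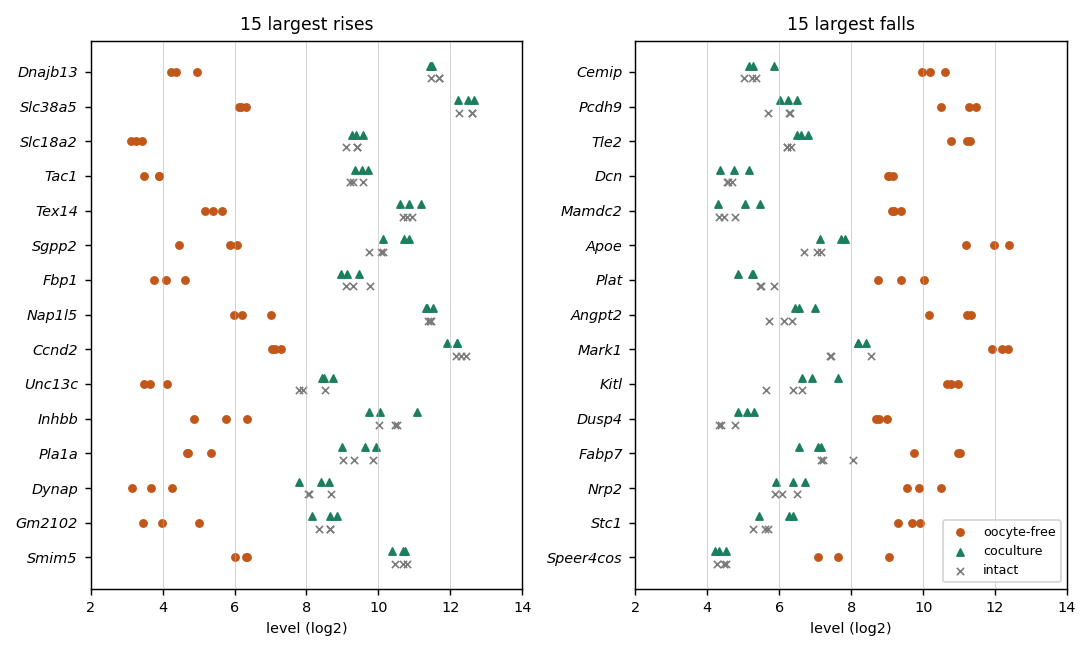
Level (log2, horizontal axis) of the 15 genes with the largest rise (left) and the 15 with the largest fall (right), each symbol 1 array: circles oocyte-free complexes, triangles cocultures and crosses intact complexes, all without estrogen, 3 arrays a group. In every gene shown the oocyte-free arrays lie apart from the cocultures, and the crosses lie near the triangles.

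Cemip, which encodes a protein that binds hyaluronan and promotes its breakdown, had the largest fall. It lay at 5.26, 5.84 and 5.15 in cocultures and 10.60, 9.97 and 10.18 in oocyte-free complexes. Pcdh9, a protocadherin of cell adhesion, lay at 6.49, 6.25 and 6.01 and 11.28, 11.47 and 10.49, and Tle2, a corepressor of the Groucho family, at 6.80, 6.59 and 6.49 and 11.23, 11.29 and 10.78. In all 3 genes even the lowest oocyte-free array stood far above the highest coculture. Their differences were -4.83 ± 0.35, -4.83 ± 0.23 and -4.47 ± 0.27.

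Dcn, the matrix proteoglycan decorin, had values of 5.17, 4.73 and 4.36 with oocytes and 9.05, 9.03 and 9.15 without. Plat, tissue plasminogen activator, had 5.25, 5.28 and 4.85 and 10.01, 9.37 and 8.75. Angpt2, a ligand of the TIE2 receptor of blood vessels, had 6.99, 6.54 and 6.43 and 11.32, 11.22 and 10.16. Array 14 was the lowest oocyte-free array for Plat and Angpt2 and the highest for Dcn, and it stayed clear of the cocultures in all 3. These genes fell by 4.32 ± 0.23, 4.25 ± 0.29 and 4.25 ± 0.28. Apoe, the lipid carrier, fell by 4.29 ± 0.33, Mamdc2 fell by 4.31 ± 0.33, and Stc1, the hormone stanniocalcin, fell by 3.61 ± 0.28. Among intracellular and surface proteins, Mark1, a kinase that acts on microtubule-associated proteins, fell by 3.88 ± 0.24, Dusp4, a phosphatase of MAP kinases, fell by 3.72 ± 0.23, Fabp7, a fatty acid binding protein, fell by 3.65 ± 0.47, Nrp2, a co-receptor for semaphorins and VEGF, fell by 3.64 ± 0.30, and Speer4cos fell by 3.56 ± 0.34. The adjusted p-values of the 15 largest falls lay between 9.57e-11 and 1.19e-05.

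The oocyte factors signal through the TGF-beta superfamily, in which GDF9 and activin act through SMAD2 and SMAD3 and the BMPs through SMAD1 and SMAD5. Of 10 genes of activin, inhibin and follistatin, 5 rose and 2 fell (3 rises with the array series as a term). Inhbb, the beta-B subunit of activin and inhibin, lay at 11.06, 10.04 and 9.75 in cocultures and 4.87, 5.76 and 6.35 in oocyte-free complexes, a rise of 4.62 ± 0.32. Fst, which encodes follistatin, an antagonist of activin, was at 12.99, 12.74 and 12.79 and 10.08, 9.43 and 9.14 and rose by 3.29 ± 0.21. Of the other subunits, Inha rose by 1.02 ± 0.16 and Inhba by 0.52 ± 0.18, with no overlap between the groups for either gene. The call of Inhba ended at 0.52 with the 2 groups fitted alone, 0.24 with the array series as a term, 0.28 with the mean of all probe sets, 0.42 after a second quantile normalization, 0.41 after centring, 0.08 with array 5 regrouped, 0.43 without array 3, 0.56 without array 15 and 0.42 without array 8. Acvr2b, an activin receptor, fell by 0.82 ± 0.19 (-0.82 with the 2 groups fitted alone, no longer called) and Bambi, a pseudoreceptor that blocks signalling, fell by 0.87 ± 0.21.

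On the BMP side, ligands and antagonists moved in both directions while the target genes Id1 and Id3 fell. Of 20 genes tested, 4 rose and 7 fell. Bmp6 rose by 2.74 ± 0.28, the antagonist gene Grem1, a known target of oocyte factors in cumulus cells, by 1.59 ± 0.25, and the receptor gene Bmpr1b by 0.80 ± 0.22 (0.60 without array 8, no longer called). Grem1 was at 8.55, 7.71 and 8.30 with oocytes and 6.59, 6.60 and 6.60 without, so the oocyte-free arrays were nearly equal. Bmp2 was at 6.90, 7.05 and 7.08 in cocultures and 9.35, 9.54 and 8.67 in oocyte-free complexes and fell by 2.18 ± 0.20. Id3, an inhibitor of basic helix-loop-helix factors, was at 11.41, 11.54 and 11.54 and 12.44, 12.48 and 12.55 and fell by 0.99 ± 0.13, while Id2 (-0.45 ± 0.24) and Id4 (0.25 ± 0.29) were not called. The pathway's own SMAD genes Smad1, Smad5 and Smad6 changed by -0.87 ± 0.22, -0.82 ± 0.21 and -1.08 ± 0.35, each called. Smad1 and Smad5 lost the call at -0.87 with the 2 groups fitted alone and -0.82 with the 2 groups fitted alone. Smad6 lost its call at -1.08 with the 2 groups fitted alone, -0.72 with the array series as a term, -1.01 without array 15, -0.82 without array 9, -0.74 without array 2A and -0.95 without array 8.

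Among 19 genes of the TGF-beta pathway and SMAD2/3 targets, 5 rose and 6 fell. Pmepa1, a target and feedback inhibitor, had 10.26, 10.32 and 10.21 in cocultures and 7.19, 7.28 and 6.56 in oocyte-free complexes and rose by 3.25 ± 0.19. Tgfbi, a secreted target of TGF-beta, moved the other way, at 6.07, 5.81 and 6.20 and 9.01, 9.42 and 8.68, a difference of -3.01 ± 0.19. Tgfb3 rose by 1.71 ± 0.29, and the transducer and receptor genes Smad3 and Tgfbr1 fell (-1.34 ± 0.19 and -1.33 ± 0.22). The inhibitory Smad7 (0.27 ± 0.22) and Smad2 (-0.13 ± 0.19) were not called.

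Of 10 genes of gonadotropin and sex steroid receptors and their kin, 3 rose and 2 fell. The estrogen receptor genes Esr1 and Esr2 rose by 2.54 ± 0.31 and 0.87 ± 0.24, and Fshr, the receptor for follicle-stimulating hormone, by 1.65 ± 0.27. Esr2 was no longer called at 0.63 with array 5 regrouped and 0.73 without array 8. Esr1 was at 9.49, 8.82 and 9.09 in cocultures and 6.11, 5.98 and 7.70 in oocyte-free complexes, with array 14 the nearest to the cocultures, and arrays 9 and 14 differed by only 1.12. The anti-Müllerian hormone receptor gene Amhr2 fell by 0.46 ± 0.15, a call that ended at -0.46 with the 2 groups fitted alone, -0.26 with array 5 regrouped, -0.43 without array 15, -0.41 without array 9, -0.43 without array 14, -0.45 without array 2A and -0.37 without arrays 9 and 14. Hsd17b1, which makes estradiol from estrone, lay at 13.20, 12.94 and 13.10 and 8.89, 8.97 and 8.71 and rose by 4.22 ± 0.21, and Hsd11b2, which inactivates glucocorticoids, lay at 8.37, 8.53 and 8.75 and 4.66, 4.56 and 4.25 and rose by 4.06 ± 0.20. The groups were far apart in both genes. Star (-0.20 ± 0.16) and Cyp11a1 (-0.34 ± 0.23), which start steroid synthesis from cholesterol, were not called, and Akr1c18, which breaks down progesterone, fell by 1.35 ± 0.16. In all, 4 of 10 steroid genes rose and 2 fell.

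Of 18 transcription factors of granulosa cells, 4 rose and 6 fell (2 rises without array 14). Nr5a2, an orphan receptor needed in granulosa cells for ovulation, rose by 1.32 ± 0.26 and Foxo1 by 0.64 ± 0.13 (0.46 with array 5 regrouped, no longer called). Foxl2 fell by 1.15 ± 0.18, Gata4 fell by 1.22 ± 0.35, Sox4 fell by 1.53 ± 0.22 and Cebpb, a factor of the ovulatory response, fell by 1.47 ± 0.32. The Gata4 call ended at -1.22 with the 2 groups fitted alone, -0.62 with the array series as a term, -0.56 with the mean of all probe sets, -1.01 without array 9 and -0.90 without array 2A. Foxl2 thus stayed at 10.24 or above in every coculture while lying lower than in each oocyte-free array.

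Cell division genes had the highest share of calls among the lists, 97.4% of the replication and of the mitosis genes. Of 38 genes of DNA replication and licensing, 37 rose and none fell, with a median change of 1.44 against 0.02 over all genes tested. The median level of the list was 8.94 in cocultures and 9.16 in intact complexes, against 7.42 in oocyte-free ones. Uhrf1, which guides DNA methylation at replication forks, had 8.35, 8.83 and 9.33 in cocultures and 5.43, 5.20 and 5.07 in oocyte-free complexes, and rose by 3.60 ± 0.20. Tk1, a thymidine kinase, rose by 3.28 ± 0.39, Rrm2, a subunit of ribonucleotide reductase, by 2.91 ± 0.22, Cdc6, a loader of the replicative helicase, by 2.68 ± 0.34, and the helicase genes Mcm5, Mcm3, Mcm4 and Mcm6 by 2.13 to 2.40. Orc1, the largest subunit of the origin recognition complex, did not pass the test (-0.09 ± 0.26).

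Of 39 genes of mitosis and the spindle, 38 rose and none fell, with a median of 2.05. Their median level was 7.91 in cocultures against 6.04 in oocyte-free complexes and 8.00 in intact ones. Ube2c, the ubiquitin-conjugating enzyme of the anaphase-promoting complex, was at 10.59, 10.11 and 10.93 and 6.13, 6.11 and 6.40 and rose by 4.33 ± 0.40. Aurkb, a kinase of chromosome segregation, rose by 4.15 ± 0.36, the condensin genes Smc2 and Ncapg by 3.11 ± 0.45 and 3.10 ± 0.41, Ccna2, cyclin A, by 3.01 ± 0.29, and Cdk1 by 2.61 ± 0.24. Foxm1, a transcription factor for mitotic genes, was not called (0.18 ± 0.13). Of 21 genes of G1 cyclins, their kinases, inhibitors and E2F factors, 13 rose and 2 fell. Ccnd2, cyclin D2, lay at 12.19, 11.90 and 12.19 and 7.29, 7.13 and 7.05 and rose by 4.94 ± 0.20, and Ccne2 and E2f7 rose by 2.14 ± 0.28 and 2.45 ± 0.23. The inhibitor gene Cdkn1c, which encodes p57, was at 5.59, 5.44 and 5.50 with oocytes and 8.95, 8.52 and 8.08 without and fell by 3.01 ± 0.19. Cdkn1b (0.15 ± 0.23), Ccnd1 (-0.25 ± 0.16) and Ccnd3 (-0.14 ± 0.16) were not called.

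Each of these lists is shown with a promoter window, that of its most raised member matching a motif known for its class. The windows shown were thus picked for the match. RefSeq windows of 300 bases, 250 before to 50 after a gene's start (assembly GRCm38.p6), were found for 9902 of the genes tested. The E2F letters searched were TTTCCCGC, TTTCGCGC, TTTGCCGC and TTTGGCGC on both strands, and the cell cycle homology region was TTTGAA on both strands. At least 1 E2F match stood in 16 of 33 replication genes with a window (48.5%), against 4.74% of all tested genes with a window and 6.06% of the mitosis genes. A TTTGAA match stood in 24 of 33 mitosis genes (72.7%), against 13.8% of all tested genes with a window and 18.2% of the replication genes. Capitals mark the match in the windows of Uhrf1 (chr17:56304063-56304362, plus strand, first matched base at -185 from the start) and Ube2c (chr2:164769679-164769978, plus strand, -29).
Uhrf1: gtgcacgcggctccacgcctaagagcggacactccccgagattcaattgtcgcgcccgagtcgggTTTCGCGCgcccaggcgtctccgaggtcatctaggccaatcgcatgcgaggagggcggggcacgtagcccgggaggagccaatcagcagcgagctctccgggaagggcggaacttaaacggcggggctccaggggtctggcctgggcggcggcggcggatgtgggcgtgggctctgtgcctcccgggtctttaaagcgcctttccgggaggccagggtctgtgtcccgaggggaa
Ube2c: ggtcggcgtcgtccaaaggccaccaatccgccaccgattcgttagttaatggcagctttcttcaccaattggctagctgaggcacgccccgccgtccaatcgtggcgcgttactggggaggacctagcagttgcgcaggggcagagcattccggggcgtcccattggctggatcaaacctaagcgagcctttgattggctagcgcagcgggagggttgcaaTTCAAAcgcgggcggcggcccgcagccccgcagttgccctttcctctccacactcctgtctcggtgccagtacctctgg
The Ube2c match is TTTGAA read on the other strand. A match is a description of these letters and shows no binding.

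**Figure D3:**
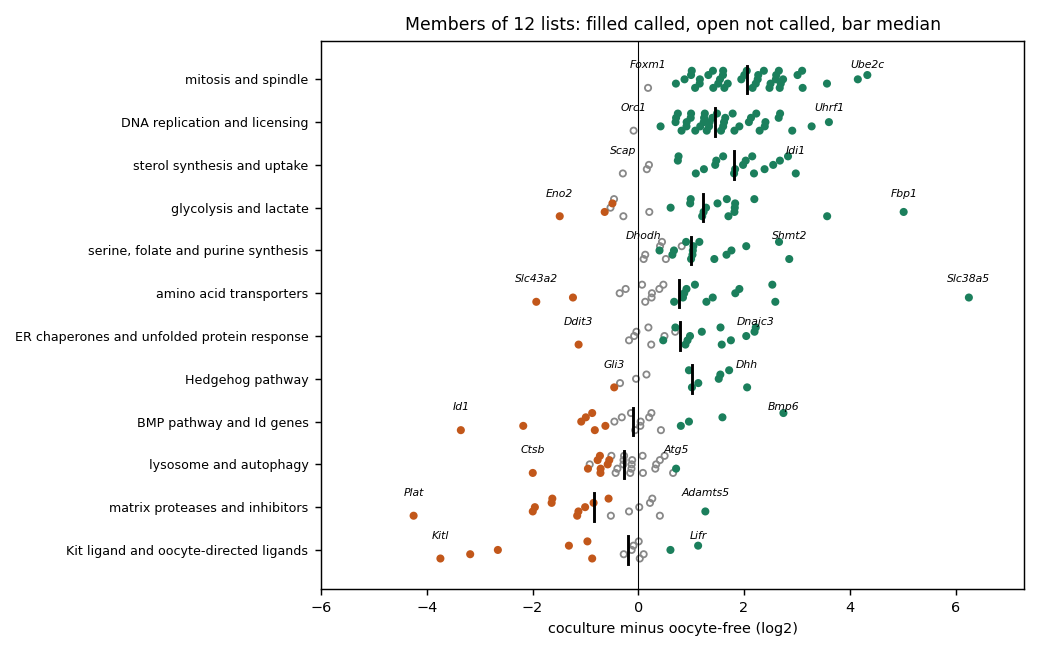
Change on adding oocytes (log2, horizontal axis) of every tested member of 12 gene lists, 1 row per list and 1 point per gene, filled where limma's adjusted p was under 0.05; the vertical tick is the list median and the extreme members are named. The replication and mitosis rows lie almost wholly above 0, and the protease row mostly below.

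Of 21 genes of sterol synthesis and uptake 18 rose and none fell, with a median of 1.81. Idi1, isopentenyl diphosphate isomerase, rose by 2.98 ± 0.41, Msmo1, a sterol C4 demethylating oxidase, by 2.68 ± 0.27, Nsdhl, an enzyme of the same step, by 2.55 ± 0.28, and Stard4, a carrier of cholesterol between membranes, by 2.39 ± 0.36. Idi1 lay at 7.81, 8.17 and 8.70 in cocultures and 5.97, 5.69 and 4.09 in oocyte-free complexes, without overlap. Hmgcs1, the synthase before the rate-limiting reductase, rose by only 0.75 ± 0.14. The regulators Srebf2 (0.16 ± 0.19) and Scap (-0.29 ± 0.21) did not pass. A sterol regulatory element (TCACNCCAC, both strands) stood in 1 of 17 windows of the list, that of Hmgcs1 (5.88%, against 1.49% of all tested genes with a window), at chr13:119690101-119690400 on the plus strand with its first base at -137, shown in capitals.
Hmgcs1: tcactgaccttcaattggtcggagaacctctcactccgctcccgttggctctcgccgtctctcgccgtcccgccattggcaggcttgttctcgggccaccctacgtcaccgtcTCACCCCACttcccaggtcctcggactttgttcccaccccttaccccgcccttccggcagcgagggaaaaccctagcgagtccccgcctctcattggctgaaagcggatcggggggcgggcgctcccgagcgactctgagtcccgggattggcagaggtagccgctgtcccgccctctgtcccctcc
Genes of sterol efflux and lipoproteins gave 1 rise and 5 falls among 16, 37.5% called against 33.2% of all genes. Besides Apoe, Mylip, which marks the LDL receptor for degradation, fell by 1.59 ± 0.20, Lpl, lipoprotein lipase, fell by 0.94 ± 0.16 and Abcg1, a cholesterol exporter, fell by 0.93 ± 0.22 (-0.66 with array 5 regrouped, no longer called). Scarb1, the HDL receptor, rose by 1.06 ± 0.16. In fatty acid synthesis 7 of 16 genes rose and 1 fell: the desaturase gene Scd2 rose by 2.71 ± 0.36 and Acss2, which makes acetyl-CoA from acetate, by 1.81 ± 0.31, while Acsl4 fell by 0.92 ± 0.34, a call that ended at -0.92 with the 2 groups fitted alone, -0.29 with the array series as a term, -0.92 with no filter, -0.83 with array 5 regrouped, -0.91 without array 3, -0.72 without array 9, -0.59 without array 2A and -0.77 without array 8.

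Of 22 genes of glycolysis and lactate handling, 15 rose and 3 fell, with a median of 1.22. Fbp1, fructose bisphosphatase, an enzyme of gluconeogenesis rather than glycolysis, had the largest rise, from 4.09, 3.77 and 4.63 in oocyte-free complexes to 8.97, 9.12 and 9.45 in cocultures, or 5.02 ± 0.21. Aldoc, an aldolase, was at 10.62, 9.56 and 9.43 and 6.33, 6.33 and 6.24 and rose by 3.57 ± 0.28. Pgam1 rose by 2.19 ± 0.23, Tpi1 by 1.82 ± 0.17, Pdk1, a kinase that inhibits pyruvate dehydrogenase, by 1.82 ± 0.27 and the platelet-type phosphofructokinase gene Pfkp by 1.70 ± 0.30. The lactate exporter gene Slc16a3 rose by 1.67 ± 0.23. The muscle-type phosphofructokinase gene Pfkm fell by 0.64 ± 0.19, the heart-type lactate dehydrogenase gene Ldhb fell by 0.49 ± 0.14 and the neuronal enolase gene Eno2 fell by 1.49 ± 0.40. All 3 falls lost their calls in some alternatives: Pfkm ended at -0.55 with the array series as a term, -0.50 with array 5 regrouped, -0.52 without array 9 and -0.48 without arrays 9 and 14, Ldhb at -0.49 with the 2 groups fitted alone, -0.45 with the array series as a term, -0.39 without array 9 and -0.38 without arrays 9 and 14 and Eno2 at -0.67 with the array series as a term, -1.14 with array 5 regrouped, -1.17 without array 15 and -1.07 without array 8. The hexokinase genes Hk1 (-0.28 ± 0.22) and Hk2 (0.21 ± 0.17) were not called.

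The share of mitochondrial genes called, 32.1% of respiratory chain subunits and 35.0% of genes of the tricarboxylic acid cycle, was near the 33.2% of all genes. Of 28 respiratory chain subunits 8 rose (5 with the array series as a term, and 5 after centring) and 1, Sdha, fell (-0.42 with the array series as a term, -0.09 with the mean of all probe sets, -0.44 with array 5 regrouped and -0.49 without arrays 9 and 14, no longer called), with a median of 0.25, and of 20 genes of the tricarboxylic acid cycle 6 rose and 1 fell. Idh3a, a subunit of isocitrate dehydrogenase, rose by 1.69 ± 0.24, Atp5b, a subunit of ATP synthase, by 0.89 ± 0.25 (0.74 with the array series as a term, 0.58 with array 5 regrouped and 0.71 without array 3, no longer called), and the cytosolic isocitrate dehydrogenase gene Idh1 fell by 1.07 ± 0.20. In the pentose phosphate pathway 2 of 7 genes rose and none fell, 28.6% called against 33.2% of all genes. Pgls rose by 1.14 ± 0.22 and Rpia by 0.49 ± 0.17. Rpia was no longer called at 0.49 with the 2 groups fitted alone, 0.42 with the array series as a term, 0.39 after a second quantile normalization, 0.38 after centring, 0.40 with array weights, 0.36 with array 5 regrouped, 0.31 without array 3, 0.48 without array 14, 0.46 without array 2A and 0.52 without array 8.

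Of 22 amino acid transporters 12 rose and 2 fell, with a median of 0.76. Besides Slc38a5, Slc38a4, an imprinted transporter, rose by 2.53 ± 0.22, Slc7a8 by 1.91 ± 0.27, the arginine and lysine transporter gene Slc7a1 by 1.83 ± 0.30 and Slc3a2, the shared heavy chain of several transporters, by 1.29 ± 0.27. Slc43a2, a transporter of large neutral amino acids, fell by 1.93 ± 0.23, and the creatine transporter gene Slc6a8 fell by 1.24 ± 0.23. Of 21 genes of serine, folate and purine synthesis 15 rose and none fell, with a median of 1.00. Shmt2, which moves a carbon unit from serine to folate in mitochondria, was at 11.38, 10.54 and 10.83 in cocultures and 8.06, 8.13 and 8.00 in oocyte-free complexes and rose by 2.85 ± 0.21. Mthfd2, the next mitochondrial enzyme, rose by 2.66 ± 0.19, Mthfd1l by 2.04 ± 0.18 and Phgdh, the entry to serine synthesis, by 1.04 ± 0.23.

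Of 19 genes induced by the transcription factor ATF4 or by amino acid stress, 8 rose (5 with the array series as a term) and 2 fell. Nupr1, a small stress-induced chromatin protein, lay at 11.61, 11.73 and 11.72 in cocultures and 7.38, 7.46 and 7.36 in oocyte-free complexes, with little spread in either group, and rose by 4.29 ± 0.28. Asns, asparagine synthetase, rose by 2.43 ± 0.22, Chac1, which degrades glutathione, by 1.94 ± 0.40, and Ddit4, an inhibitor of mTORC1, by 1.65 ± 0.33. Ddit3, which encodes the stress factor CHOP, fell by 1.13 ± 0.17 (-0.58 with the mean of all probe sets, no longer called), and Atf4 itself was not called (0.15 ± 0.31). With the mean of all probe sets Atf4 was called higher, at 0.52. Without array 14 its sign was the opposite (-0.41, not called). An ATF4 element (TGATGCAA or TGATGAAA, both strands) stood in 6 of 15 windows of this list (40.0%), in 2 of 15 of the transporters, in 0 of 19 of the serine and folate list and in 1.27% of all tested genes with a window. In the Nupr1 window (chr7:126625421-126625720, minus strand, first base at -110) it reads TTGCATCA, the other strand of TGATGCAA, in capitals.
Nupr1: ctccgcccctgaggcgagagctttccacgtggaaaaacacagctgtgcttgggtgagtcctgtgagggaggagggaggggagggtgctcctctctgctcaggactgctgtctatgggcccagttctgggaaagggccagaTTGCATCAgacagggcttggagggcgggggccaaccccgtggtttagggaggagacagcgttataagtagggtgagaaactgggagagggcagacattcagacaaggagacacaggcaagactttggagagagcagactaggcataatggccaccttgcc

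Most chaperone genes of the endoplasmic reticulum rose. Of 20 genes of chaperones and the unfolded protein response, 12 rose and 1, Ddit3, fell, with a median of 0.80. Dnajc3, a co-chaperone that restrains the kinase PERK, was at 10.50, 10.60 and 10.33 and 8.28, 7.98 and 8.51 and rose by 2.22 ± 0.24. Manf, a secreted stress protein, rose by 2.20 ± 0.17, Sdf2l1 by 2.04 ± 0.21, Creld2 by 1.75 ± 0.23 and Hspa5, the chaperone BiP, by 0.89 ± 0.14. Of 17 cytosolic chaperones 5 rose and none fell, 29.4% called against 33.2% of all genes, with a list median of 0.22. Hspa1b rose by 2.00 ± 0.36 and Hspb1 by 1.39 ± 0.22. The difference between the endoplasmic reticulum and cytosolic lists was not tested. The endoplasmic reticulum stress element (CCAAT, 9 bases of any kind, CCACG; both strands) stood in 7 of 17 windows (41.2%) and in 0.172% of all tested genes with a window. It is shown for Dnajc3 (chr14:118937682-118937981, plus strand, first base at -105).
Dnajc3: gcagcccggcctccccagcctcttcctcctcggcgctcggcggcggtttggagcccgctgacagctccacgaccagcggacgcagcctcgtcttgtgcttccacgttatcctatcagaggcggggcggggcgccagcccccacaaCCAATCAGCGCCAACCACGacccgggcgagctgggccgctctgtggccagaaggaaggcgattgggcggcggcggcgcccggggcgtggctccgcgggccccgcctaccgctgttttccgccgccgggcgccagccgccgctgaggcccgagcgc
Of 26 genes of ribosome biogenesis 13 rose and none fell, with a median of 0.56. The nucleolar protein genes Nop58, Nop56 and Nop16 rose by 1.83 ± 0.30, 1.68 ± 0.17 and 1.45 ± 0.25, and Fbl, which encodes fibrillarin, by 1.10 ± 0.21.

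The labels name no ovulatory signal, and genes of the hyaluronan matrix, with its binding and breakdown, moved in both directions. Has3, Ptgs2, Ptx3 and Tnfaip6, which are also on this list, did not pass the filter on low values and were not tested. Of 15 genes 4 rose and 3 fell. Has2, the hyaluronan synthase of cumulus cells and a known target of oocyte factors, was at 7.06, 6.47 and 6.21 in cocultures and 4.57, 5.43 and 4.68 in oocyte-free complexes and rose by 1.69 ± 0.23. Ptger2, a prostaglandin E2 receptor, rose by 1.13 ± 0.23 and Itih5, a relative of the heavy chains that bind hyaluronan, by 1.42 ± 0.19. Cd44, the hyaluronan receptor, fell by 1.25 ± 0.14 and Adamts1, a protease of the proteoglycan versican, fell by 1.13 ± 0.36. The Adamts1 call ended at -1.13 with the 2 groups fitted alone, -1.11 without array 15, -0.98 without array 9, -0.65 without array 14 and -0.50 without arrays 9 and 14. Vcan itself (-0.44 ± 0.27) was not called. Genes of the EGF family and its feedback gave 1 rise and 4 falls of 14, 35.7% called against 33.2% of all genes. Dusp6, a MAP kinase phosphatase, was at -1.23 ± 0.26 and the ligand gene Tgfa at -0.83 ± 0.23 (-0.83 with the 2 groups fitted alone, -0.74 without array 15, -0.61 without array 9 and -0.71 without array 8, no longer called).

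Of 17 tested genes of matrix-degrading enzymes and their inhibitors 10 fell and 1 rose, with a median of -0.85. After Plat, the lysosomal protease gene Ctsb fell by 2.00 ± 0.29, the gelatinase gene Mmp2 fell by 1.96 ± 0.18, and Mmp11 fell by 1.63 ± 0.27, and the inhibitor genes Timp2 and Timp3 fell too (-1.64 ± 0.24 and -1.16 ± 0.20). Mmp2 lay at 6.36, 6.23 and 6.43 in cocultures and 8.29, 8.33 and 8.27 in oocyte-free complexes. Adamts5 rose by 1.27 ± 0.25 (0.85 with array 5 regrouped, no longer called). Of 28 genes of basement membrane and interstitial matrix 7 rose and 7 fell. Col6a1 and Col6a2, 2 chains of collagen VI, rose by 2.66 ± 0.31 and 1.34 ± 0.25, while Col6a3, the gene of another chain, was not called (-0.08 ± 0.18). The fibronectin gene Fn1 fell by 2.53 ± 0.25, Col5a2 fell by 2.64 ± 0.25 and Fbln2 fell by 2.50 ± 0.27. Of 27 lysosome and autophagy genes 8 fell and 1 rose, 33.3% called against 33.2% of all genes. Lamp1 was at -0.77 ± 0.18 and Psap, prosaposin, at -0.71 ± 0.22 (-0.71 with the 2 groups fitted alone, -0.36 with the mean of all probe sets, -0.41 without array 9 and -0.43 without arrays 9 and 14, no longer called). With the array series as a term 5 of the lysosome genes were lower, and after a second quantile normalization 13.

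Contractile and cytoskeletal genes split. Of 20 tested 6 rose and 5 fell. The smooth muscle actin gene Acta2 was at 12.42, 11.88 and 12.35 in cocultures and 9.73, 9.64 and 10.51 in oocyte-free complexes and rose by 2.26 ± 0.31 (only 0.67 with the mean of all probe sets, still called). Its activator gene Myocd rose by 2.11 ± 0.21, and Tagln and Myl9 by 1.19 ± 0.25 and 1.09 ± 0.28. With the array series as a term neither of the last 2 was called (0.73 and 0.60), nor was Myl9 with array 5 regrouped (0.80), and between arrays 9 and 14 Tagln differed by -0.02. Tmsb4x, the actin-sequestering thymosin beta-4, fell by 2.44 ± 0.28, Cald1, caldesmon, fell by 1.54 ± 0.37 (-0.84 without arrays 9 and 14, no longer called) and Vim, vimentin, fell by 1.21 ± 0.31. Acta2 is also a marker of theca and stroma. Of the 7 tested markers of those cells, Gli1 and Ptch1 rose as well, Dcn fell and 3 others were not called; the part of such cells in these changes was not tested.

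A list of Kit ligand and other secreted factors, with receptors of their families, gave 2 rises and 6 falls of 14 genes tested, 8 of which are receptors. Kitl, the ligand of the oocyte's receptor KIT, lay at 7.63, 6.64 and 6.90 in cocultures and 10.96, 10.66 and 10.78 in oocyte-free complexes. Gas6, a ligand of the TAM receptors, lay at 7.41, 6.63 and 7.34 and 10.71, 10.33 and 9.88, and its receptor gene Axl at 6.33, 4.90 and 5.71 and 8.60, 8.56 and 7.75. In each of these 3 genes the oocyte-free arrays were higher throughout, and the differences were -3.74 ± 0.36, -3.18 ± 0.28 and -2.66 ± 0.36. The related receptor gene Mertk fell by 1.31 ± 0.22, while Tyro3, the remaining TAM receptor gene, was not called (0.01 ± 0.20). Lifr, the receptor for leukemia inhibitory factor, rose by 1.13 ± 0.27 (0.28 with the mean of all probe sets, no longer called).

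Of 12 angiopoietin and VEGF genes 3 fell and 1 rose, 33.3% called against 33.2% of all genes: Nrp1 fell by 2.68 ± 0.41 beside Nrp2, and Vegfb rose by 1.30 ± 0.23. Vegfa, at 8.83, 7.54 and 7.21 in cocultures and 7.15, 6.58 and 7.15 in oocyte-free complexes, did not pass (0.90 ± 0.35). Of 28 ephrin, semaphorin and guidance genes 6 rose and 7 fell. The receptor gene Epha4 rose by 2.52 ± 0.34 and its relative Epha2 fell by 1.37 ± 0.17; Sema4d rose by 1.73 ± 0.30 and Sema6d fell by 1.50 ± 0.27. Among 18 genes of gap junctions and adhesion 6 rose (3 with the array series as a term) and 4 fell. The connexin genes Gja1 (-0.14 ± 0.12) and Gja4 (0.41 ± 0.20), of which the second forms the channels to the oocyte on the oocyte's side, were not called, and Gjc1 rose by 2.22 ± 0.35. Pcdh17 fell by 2.55 ± 0.23 and the N-cadherin gene Cdh2 fell by 0.91 ± 0.31, a call that ended at -0.91 with the 2 groups fitted alone, -0.28 with the array series as a term, -0.88 without array 15, -0.82 without array 9, -0.72 without array 2A and -0.72 without array 8.

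In the Hedgehog pathway, by which granulosa cells signal to theca cells, 7 of 11 genes rose and 1 fell. The ligand gene Dhh was at 9.65, 9.76 and 9.43 in cocultures and 7.74, 7.93 and 7.00 in oocyte-free complexes and rose by 2.06 ± 0.27, and Ihh rose by 0.96 ± 0.20. The target genes Gli1 and Ptch1 rose by 1.55 ± 0.18 and 1.52 ± 0.18, Gli2 by 1.72 ± 0.26, and Gli3, the main repressor, fell by 0.46 ± 0.15, a call that ended at -0.46 with the 2 groups fitted alone, -0.37 with the array series as a term, -0.05 with the mean of all probe sets, -0.32 with array 5 regrouped, -0.36 without array 15, -0.37 without array 14, -0.39 without array 8 and -0.44 without arrays 9 and 14. In the Notch pathway 4 of 15 genes rose and 3 fell. The receptor genes Notch1 and Notch2 fell by 2.37 ± 0.13 and 1.43 ± 0.23, while the ligand gene Jag1 rose by 1.65 ± 0.31 and the target genes Heyl and Hey2 by 2.80 ± 0.24 and 1.44 ± 0.18. Of 22 genes of the Wnt pathway 2 rose and 6 fell, 36.4% called against 33.2% of all genes. Wnt5b rose by 3.18 ± 0.27 and Wnt4, a factor of ovarian development, fell by 1.72 ± 0.31, and the general target gene Axin2 was not called (0.05 ± 0.16).

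In the insulin-like growth factor system 4 of 13 genes rose and 3 fell. Igf1, which supports granulosa growth together with FSH, was at 11.38, 11.30 and 11.28 and 8.60, 8.30 and 8.99 and rose by 2.69 ± 0.25. Igfbp4, which holds IGF in an inactive complex, was at 9.72, 8.67 and 9.13 and 12.74, 12.72 and 12.34 and fell by 3.43 ± 0.34, and Igfbp6 fell by 2.34 ± 0.20. Htra1, a serine protease, rose by 1.61 ± 0.17, and Igf1r, the receptor, was not called (0.11 ± 0.19).

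The peptide that holds the oocyte in meiosis is C-type natriuretic peptide, which raises cGMP in cumulus cells through NPR2. Its precursor gene Nppc, mainly a transcript of mural cells, rose by 1.48 ± 0.21, while Npr2 was not called (0.09 ± 0.22). The cGMP-degrading Pde5a fell by 1.58 ± 0.36 (-0.91 without arrays 9 and 14, no longer called) and the soluble guanylate cyclase subunit gene Gucy1b1 fell by 2.42 ± 0.32. In all 2 of 7 such genes rose and 2 fell. Of 16 sphingosine phosphate genes, Sgpp2 and Cers5 rose and 5 fell, among them the kinase genes Sphk1 (-1.44 ± 0.28) and Sphk2 (-1.10 ± 0.18) and the receptor gene S1pr2 (-1.32 ± 0.19).

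Of 19 genes of the BCL2 family and cell death 4 rose (2 with the array series as a term) and 8 fell. Bcl2l10, a BCL2 relative that the oocyte expresses at high level, lay at 7.93, 8.48 and 7.93 in cocultures, 3.78, 4.18 and 5.25 in oocyte-free complexes and 8.14, 8.71 and 8.09 in intact ones. Bok, a pore-forming member, rose by 1.82 ± 0.28. Bmf, which activates death at loss of attachment, was at 7.65, 6.34 and 7.60 and 9.99, 9.62 and 8.60 and fell by 2.21 ± 0.36, and Bcl2l2, a protective member, fell by 1.40 ± 0.26. Casp6, an executioner caspase, fell by 1.11 ± 0.22.

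Immediate early genes, whose transcripts respond within minutes to growth factors and to handling, gave 3 rises and 7 falls of 19. Fos rose by 1.57 ± 0.24 while Egr2 fell by 2.03 ± 0.48 (-1.29 with the array series as a term, no longer called), Klf6 fell by 1.56 ± 0.24, Fosl2 fell by 1.49 ± 0.20 and Junb fell by 1.36 ± 0.33. With the array series as a term, 4 of them were lower, and without array 14 only 1 was higher. Among 13 other imprinted growth genes, Plagl1, a zinc finger regulator of the imprinted network, rose by 3.24 ± 0.39, and Peg3 fell by 0.85 ± 0.26, a call that ended at -0.61 with the array series as a term, -0.34 with the mean of all probe sets, -0.81 without array 15, -0.72 without array 9, -0.80 without array 8 and -0.74 without arrays 9 and 14. Igf2 (-0.04 ± 0.16) and Mest (-0.20 ± 0.19) were not called. In the cluster of Dlk1 and Meg3, Meg3 fell by 0.68 ± 0.25 and Dlk1 was not called (-0.35 ± 0.17). The Meg3 call ended at -0.68 with the 2 groups fitted alone, -0.44 with the array series as a term, -0.68 with no filter, -0.41 with the mean of all probe sets, -0.68 without array 5, -0.33 without array 15, -0.56 without array 2A and -0.55 without array 8, and within array series 2 its sign was the opposite (0.26, array 9 minus array 14).

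The remaining lists ranged from no call, among the endothelial and blood markers, to 88.9% called, among the cumulus markers. Gclm, a subunit of the enzyme that starts glutathione synthesis, rose by 2.35 ± 0.31. Of 22 glutathione and antioxidant genes 4 rose and none fell, 18.2% called against 33.2% of all genes. Without array 14, 2 of these rose and 3 fell, and after a second quantile normalization the counts were also 2 and 3. Of 20 histone and chromatin genes 10 rose and 2 fell, with Asf1b, a histone chaperone, at 1.46 ± 0.19 and the DNA demethylase gene Tet2 at -1.71 ± 0.47 (-1.19 without array 15, no longer called). Of 17 interferon response genes 6 rose and 3 fell, and of 7 complement and acute phase genes 1 rose and 3 fell, with the complement protease gene C1s1 at -3.52 ± 0.39. Of 16 genes of calcium and ion transport 4 rose and 5 fell, with the cation channel gene Trpc6 at 2.63 ± 0.26 and the sodium-calcium exchanger gene Slc8a1 at 2.09 ± 0.35. Of 9 cumulus markers 7 rose and 1, the retinal dehydrogenase gene Aldh1a1, fell (-2.71 ± 0.34), and of 12 mural granulosa markers 8 rose and 1, Kitl, fell. No endothelial or blood marker was called of 4 tested.

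**Figure D4:**
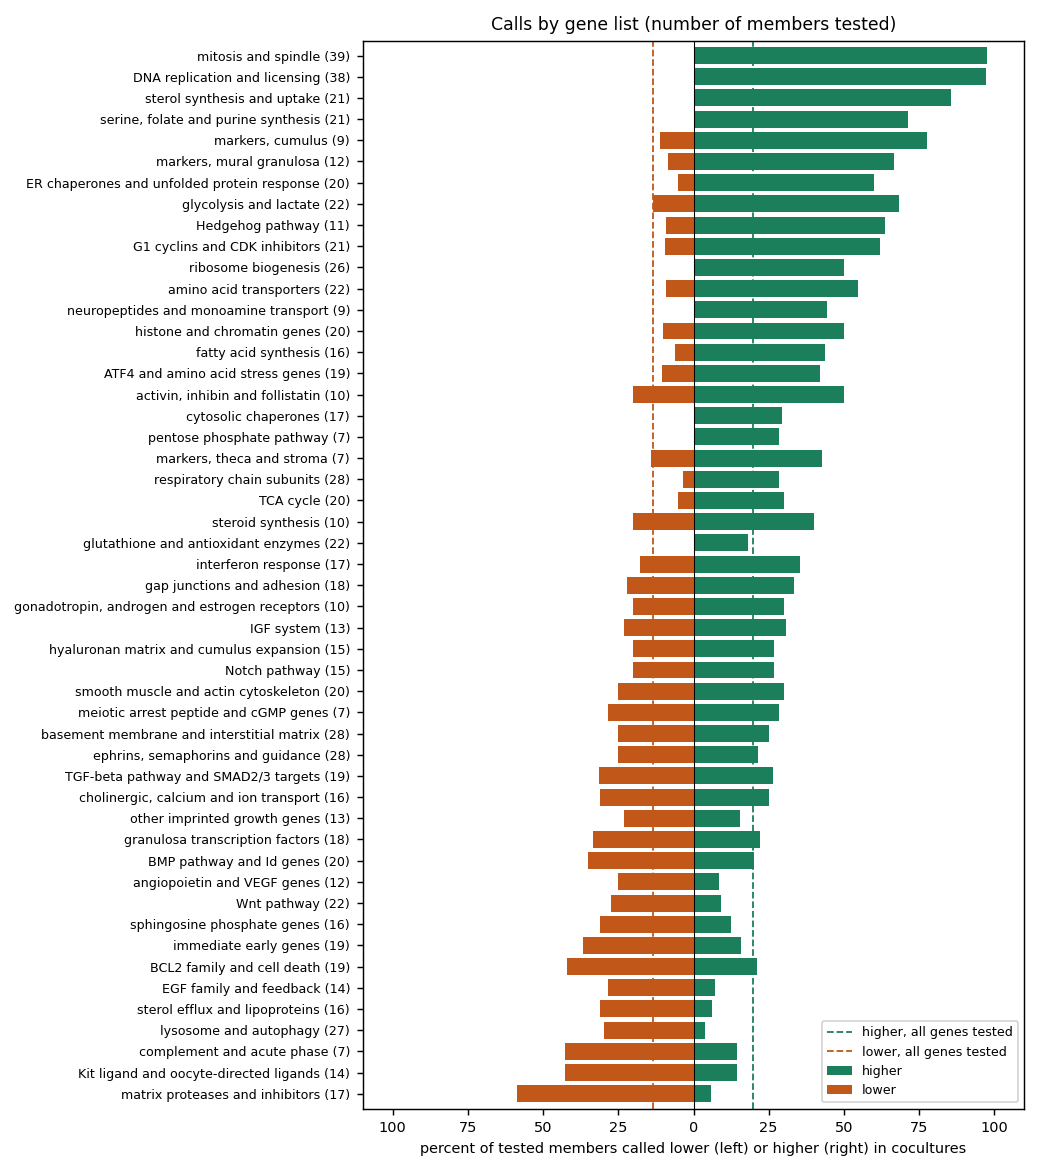
Share of the tested members of each gene list called higher (to the right) and lower (to the left) on adding oocytes, in percent of the members tested, with the number tested beside the name. The dashed lines stand at the shares over all genes, 19.8% higher and 13.4% lower; replication and mitosis reach furthest to the right.

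Some abundant transcripts were not called. Among the 500 genes of highest mean level over the 6 arrays, the 6 of smallest change were Hint1, Serf2, Eif3f, Atp5h, Dynll2 and Lamtor5. Serf2 lay at 13.34, 13.55 and 13.36 in cocultures and 13.37, 13.44 and 13.45 in oocyte-free complexes. Eif3f, a subunit of a translation initiation factor, lay at 13.00, 12.74 and 12.93 and 13.07, 13.02 and 12.57, and Atp5h, a subunit of ATP synthase, at 12.43, 12.76 and 12.63 and 12.71, 12.64 and 12.48. The groups overlapped in each. The 95% intervals of the difference were -0.32 to 0.31 for Serf2, -0.29 to 0.29 for Eif3f and -0.29 to 0.28 for Atp5h. A difference within these bounds is not excluded with 3 arrays a group.

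Different probe sets of a gene did not always move alike. Of the called genes 1943 had further tested probe sets, 3269 in all, and 2677 of these (81.9%) differed in the same direction, 1435 of them called. Opposite calls occurred in 52 genes. The 6 with opposite probe sets furthest apart were Ints8, Gid4, BC004004, Enah, Hnrnpr and Washc3. For Ints8, a subunit of the Integrator complex, one probe set differed by 1.57 and another by -1.39, with a further one at 0.00; the gene's call ended at -1.01 with the array series as a term and -0.01 with the mean of all probe sets. For Washc3, a subunit of the WASH complex, one probe set was higher in cocultures by 0.88 and another lower, at -1.47. Probe sets of a gene can read different ends or splice forms, and which transcript each read was not tested.

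With estrogen present the same step, adding oocytes to oocyte-free complexes, called 3013 genes (24.6%). The 2163 genes called in the same direction in both settings were 53.2% of the calls without and 71.8% of those with estrogen, and 33 genes were called in opposite directions. The 2 comparisons share no array, but all 18 arrays share the estimate of the spread. The difference between them, tested as an interaction in limma, was called for 341 genes (2.78%), 262 of them among the 4066 called without estrogen. Of these 262, the rise without estrogen was smaller, or turned, with estrogen in 165 genes and larger in 12, and the fall was smaller, or turned, in 62 and larger in 23. These genes were picked by a call without estrogen, which by itself favours a smaller change in the other setting. With array 5 left out, 249 genes were called, and with array 5 counted as oocyte-free without estrogen, as its other labels say, 87. Without array 14, 541 genes were called.

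The largest interactions included changes of sign. Acta2 rose without estrogen, whereas with estrogen its change was -1.87 ± 0.31, an interaction of -4.13 ± 0.45 (adjusted p = 4.18e-05). Sgpp2, which rose by 5.11 without estrogen, differed by 0.54 ± 0.34 with it and was not called there. Gm2102 differed by 0.30 ± 0.29 and Rgs13, a regulator of G protein signalling, which rose by 3.78 ± 0.25 without estrogen, by 0.76 ± 0.25. Among the falls, Tmem86a (-2.11 ± 0.22 without estrogen) and Rbfox3, a splicing factor gene of neurons (-1.87 ± 0.37), were higher in the cocultures with estrogen, at 0.75 ± 0.22 and 1.05 ± 0.37. Cemip and Tle2 fell with estrogen too (-1.75 ± 0.35 and -1.66 ± 0.27), and the interactions were 3.08 ± 0.50 and 2.81 ± 0.38.

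Some lists were counted with estrogen as well. All calls among the replication genes (34 of 38) and the mitosis genes (35 of 39) were rises there too, with medians of 1.07 and 1.08 against 1.44 and 2.05 without estrogen; the interaction was called for 1 and 6 of the genes. For sterol synthesis 17 of 21 genes rose with estrogen, at a median of 2.00, and the interaction was called for none. Other lists changed more. Of 20 contractile and cytoskeletal genes none rose and 11 fell with estrogen, against 6 rises and 5 falls without, and 10 interactions were called. Of 19 immediate early genes none rose and 9 fell with estrogen, against 3 rises and 7 falls without, and 5 interactions were called. Inhbb (6.21 ± 0.32 with estrogen), Fbp1 (5.06 ± 0.21) and Pcdh9 (-4.68 ± 0.23) had interactions of 1.59 ± 0.46, 0.04 ± 0.30 and 0.15 ± 0.33, none of them called. With estrogen Bmp2 fell by 3.82 ± 0.20 (interaction -1.64 ± 0.28, adjusted p = 0.00272), while the BMP target gene Id3 was not called there (-0.15 ± 0.13; interaction 0.84 ± 0.18, adjusted p = 0.0124). Tgfbi, too, was not called with estrogen (-0.40 ± 0.19; interaction 2.61 ± 0.27, adjusted p = 2.73e-05).

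**Figure D5:**
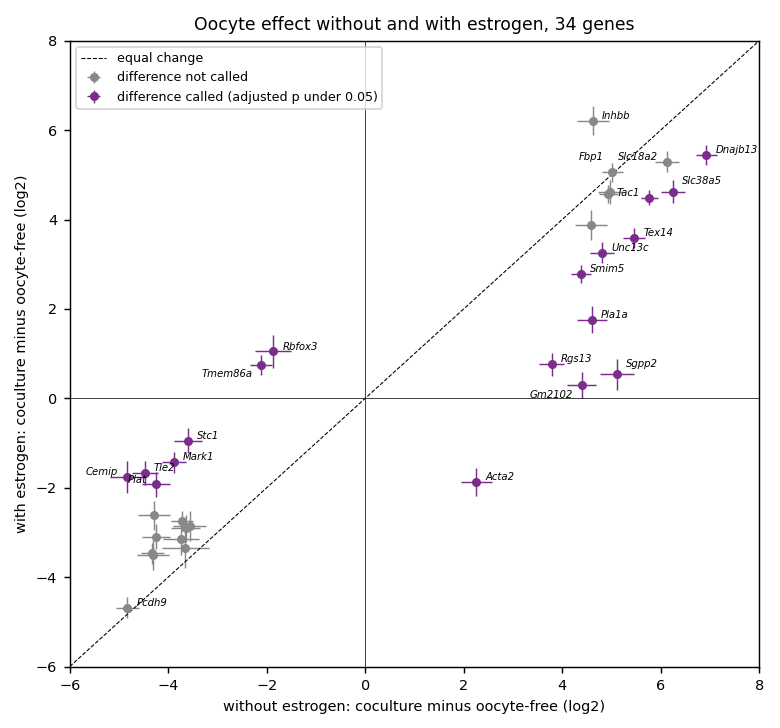
Change on adding oocytes without estrogen (horizontal axis, log2) against the change with estrogen (vertical axis, log2) for 34 genes, the 15 largest rises and falls and those of largest interaction; bars are SE of 3 arrays a group and the dashed line marks equal change. The 18 purple genes have a called interaction, among them Acta2, Sgpp2, Gm2102 and Rgs13 far below the line.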

How the data were processed

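Cumulus-cell RNA of 18 samples, 3 in each of 6 groups, was measured on Affymetrix mouse expression arrays after 2 rounds of amplification, per the labels' protocols. The deposited log2 values, given to 2 decimals, are RMA signals; the submitters' processing notes name Affymetrix Expression Console 1.1 as the software. The genome build and annotation behind the chip are not given in the sources used here. No pair of arrays held identical values.

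Of 45101 probe sets, 34945 had 1 gene symbol, 932 several, 9160 none listed, and 64 were controls. Only single-gene probe sets were used, and 34741 symbols were updated through a RefSeq table of assembly GRCm38.p6. A gene was represented by its probe set of highest mean (18193 genes), and 12252 genes above the array median on at least 3 arrays were tested. A single limma 3.58.1 model (R 4.3.3, lmFit and eBayes) was fitted to 6 group means over all 18 arrays, so the groups shared 1 estimate of the spread. P-values were adjusted by Benjamini-Hochberg over all tested genes, with a threshold of 0.05. The fit was tested on simulated data. Precision is limited by the number of arrays.

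The members and the 53 gene lists (1150 entries, 856 distinct genes tested) were chosen with earlier results of these data known. Named genes were the 15 largest rises and falls without overlap between groups, up to 4 called members of each list in each direction with members not called that a list turns on, the 6 smallest changes among the 500 most abundant genes, the 6 genes with the widest opposite probe sets, and the 4 largest interactions with estrogen in each direction. Where a gene outside these is named, it was chosen after its values were seen. Promoter windows are RefSeq's, searched on both strands. Alternatives changed the samples, the filter, the choice of probe set, the normalization, the variance model and the blocking.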

Additional observations from a re-analysis of the deposited data

Results flagged for a closer look

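Of the named genes called on adding oocytes without estrogen, 53 had a different change with estrogen by limma's interaction test (adjusted p under 0.05 over 12252 genes, 3 arrays a group). Each value below is that difference, the change with estrogen minus the change without, on the log2 scale. In 6 genes the oocyte effect was called in both settings with opposite signs, and their interactions were Acta2 -4.13, Amhr2 0.99, Myl9 -2.31, Ptch1 -2.07, Rbfox3 2.92 and Tmem86a 2.86. In 19 genes the effect was not called with estrogen: Adamts5 -1.52, Akr1c18 0.94, Epha2 0.98, Fos -2.05, Gli1 -1.46, Gm2102 -4.10, Hspb1 -1.58, Id3 0.84, Igfbp6 1.98, Itih5 -1.78, Myocd -1.88, Nppc -1.36, Pcdh17 1.92, Ptger2 -1.44, Sgpp2 -4.57, Slc38a4 -2.93, Slc43a2 2.19, Tagln -1.78 and Tgfbi 2.61.

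Genes that rose in both settings, but by less with estrogen, numbered 16. These differences were Aurkb -1.97, Bmp6 -1.89, Cdk1 -1.56, Dnajb13 -1.49, Gal -1.22, Hsd11b2 -2.00, Pla1a -2.84 and Pmepa1 -2.03. Further differences were Rgs13 -3.02, Rrm2 -1.68, Slc38a5 -1.63, Smim5 -1.59, Tac1 -1.28, Tex14 -1.88, Ube2c -2.18 and Unc13c -1.55. A fall was smaller with estrogen in 8 genes, at Cemip 3.08, Gas6 1.84, Id1 1.53, Mark1 2.45, Notch1 0.88, Plat 2.32, Stc1 2.66 and Tle2 2.81. The change was larger with estrogen in 4 genes: Bmp2 -1.64, Cald1 -2.57, Klf6 -1.65 and Tmsb4x -2.61. With array 5 left out 48 of the 53 interactions were still called, with array 5 counted as oocyte-free without estrogen 18, with the array series as a term 53 and with the replicate block 51. No explanation was tested.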

How the results depend on the processing

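In the report 4066 genes were called (2427 higher, 1639 lower), and 341 had an oocyte effect that differed with estrogen. Testing each single-gene probe set on its own called 6350 of 21259 (3796 higher, 2554 lower), with more features tested. Fitting the 2 compared groups alone called 2739 genes, 1037 of them lower, with fewer arrays behind the spread. Interactions numbered 1557 with array weights, 87 with array 5 counted as oocyte-free without estrogen, and 638 without both arrays of series 2, an alternative added after seeing the data; the cause was not tested. Leaving out 1 array at a time gave 3223 to 4257 called genes, 1881 to 2459 higher and 1302 to 1995 lower, and 233 to 541 interactions, the most without array 14. No other alternative moved these counts by more than 1.5 times; they gave 3308 to 5527 called genes.

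Of 265 named genes tested 224 were called, and 188 of these kept the call under every alternative that tested them; the other 36 lost it in at least 1. The array series as a term ended 18 named calls, the 2 groups alone 17, array 5 counted as oocyte-free without estrogen 14, and the mean of all probe sets 11. Between arrays 9 and 14 alone, 117 of the 224 named changes lay within the larger group SD of the reported value and 105 moved beyond it, such as Acta2 (1.37 against 2.26) and Acvr2b (-0.19 against -0.82). There Meg3 (0.26) and Tagln (-0.02) had the opposite sign, and with the mean of all probe sets Washc3 was at -0.14 (limma's adjusted p = 0.393; the cause was not tested).

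A replicate block by runs of 6 title numbers, which puts arrays 3 and 2A, 9 and 8, and 15 and 14 together, called 4050 genes (2414 higher, 1636 lower) with 337 interactions, and ended 1 named call, that of Acsl4. The deviations of these pairs from their group means correlated at 0.002, -0.041 and -0.24, so the numbers were not taken to pair the samples.

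With 3 arrays a group, small differences of variable genes are not resolved. The oocyte-free arrays of series 3 have no coculture beside them in their series, and the cocultures of series 1 have no oocyte-free array, so series and group are only partly separable.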
